A study of Mus musculus with 6 samples.

Results

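The 10 genes described here encode enzymes of the methionine cycle and of choline oxidation, namely Mat1a, Mat2a, Gnmt, Ahcy, Bhmt, Bhmt2, Chdh, Dmgdh, Sardh and Cbs. They were taken by symbol from the expression table of mouse liver, which holds 24346 gene symbols, and all 10 were found and all 10 were among the 11493 genes tested. Liver RNA was sequenced from 3 control mice and 3 lipophagy mice. All 6 were male mice of the C57BL/6J strain (C57BL/6 in the sample labels), 8 weeks old when they were placed on CDAHFD. This is a high-fat diet without choline whose protein is replaced by L-amino acids, and the paper describes its methionine as limited. The mice were kept on this diet for 6 weeks, returned to normal chow and examined after 2 further weeks. The diet's restriction of choline and methionine had thus ended when the livers were taken. Both groups received an AAV8 vector in which the hepatocyte-directed thyroxine-binding globulin promoter drives mCherry fused to a lipid droplet-targeting sequence (LDTS) from perilipin 1. In lipophagy mice the fusion carried eLIR, an engineered motif that binds the autophagosome protein LC3 (LDTS-eLIR), and in control mice a mutant motif without this affinity (LDTS-LIR mut). The droplet-targeting sequence by itself favours lipid storage, the vector acts in hepatocytes while whole liver was sequenced, and neither an untreated nor a chow-only group enters the comparison.

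The methionine cycle turns methionine into S-adenosylmethionine, the methyl donor of most methylation reactions, and liver carries it out at a far higher rate than other organs. Once the methyl group is given away, S-adenosylhomocysteine remains and is split to homocysteine, which is either methylated back to methionine or drained into cysteine synthesis by transsulfuration. Choline feeds the cycle: it is oxidised to betaine, betaine methylates homocysteine, and the dimethylglycine left over is stripped to sarcosine and then glycine in mitochondria. Diets without choline remove this source of methyl groups and also limit the phosphatidylcholine needed to export fat from the liver, which is why they are used to produce steatohepatitis.

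Values are FPKM, in which fragments are divided by transcript length and by the mapped fragments of the liver, so that levels can be set side by side between genes. The FPKM of all symbols summed to between 622696 and 681138 in control livers and to between 709993 and 782392 in lipophagy livers, and Alb (albumin) was the highest gene in each of the 6. The labels give no batch, and the table holds no counts. From the steps between low values, the divisor used to scale each liver was estimated at 0.857 to 1.28 times that of control liver 1. Of 1588 to 1756 low genes, 56.5% to 60.6% lay within 1% of a step. The divisor stands for sequencing depth only if no other scaling between livers was applied, and absolute depth remained unknown. The livers resembled each other closely, with Spearman correlations across genes of 0.979 to 0.982, and none of them was a copy of another. In limma the adjusted p was below 0.05 for 3 of the 11493 tested genes, or 0.0261%, and no enzyme described here was among these 3.

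Every enzyme of the set had a higher mean in lipophagy livers than in control livers on the deposited scale (7 of 10 under 3 other scalings), and Gnmt and Ahcy, which use the methyl group and clear the product, stood furthest apart. Mean Gnmt was 59.2% higher, mean Ahcy 43.1% higher and mean Dmgdh 26.0% higher, whereas Mat2a and Chdh differed by 2.06% and 2.70%. None of the 10 passed the test, with an adjusted p below 0.05 in 0 of 10 in limma, both with and without its trend. At an unadjusted p below 0.05, 4 of 10 were higher (Gnmt, Ahcy, Dmgdh and Bhmt2) and 0 were lower, beside 11.5% of all tested genes higher and 7.97% lower. In 5 of 10, those 4 and Sardh, the lowest lipophagy liver lay above the highest control liver, beside 15.4% of all tested genes, and in 0 the groups were separated in the other direction, beside 10.8%. A higher mean was found for 10 of 10, beside 54.5% of all tested genes.

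These enzymes are abundant in liver, and on the deposited scale abundant genes as a class were higher in lipophagy livers, which was not so with each liver rescaled to the same total (median -0.02) or centred on hepatocyte markers (median -0.03). On the deposited scale, among the 2734 tested genes that averaged 20 FPKM or more, 82.2% had a higher mean, 28.1% were higher at an unadjusted p below 0.05 and 35.1% were separated upwards. The median difference in log2(FPKM + 1) was 0.25 over the 10 enzymes, 0.16 over the abundant genes and 0.02 over all tested genes. The enzymes' median was 0.15 without lipophagy liver 1 and 0.15 without control liver 2. On that scale the 10 of 10 higher means stand beside 82.2% of genes of their own level, and the counts of 4 and 5 of 10 beside 28.1% and 35.1%. With the same total 7 of 10 means were higher beside 42.9% of the abundant genes, 2 of 10 were higher at an unadjusted p below 0.05 beside 5.19%, and 1 of 10 was separated upwards beside 7.06%.

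**Figure D1:**
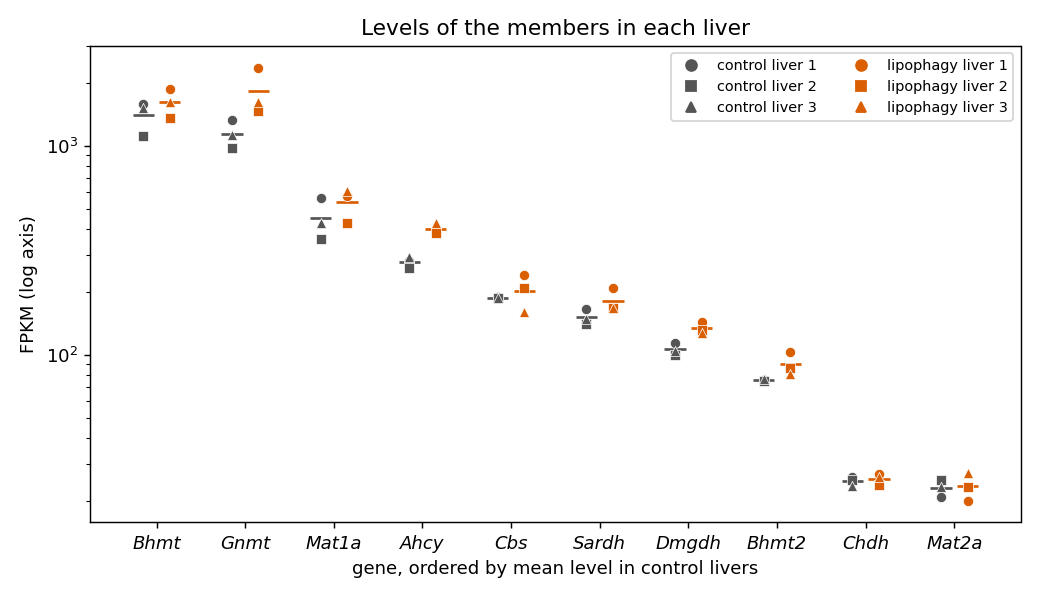
Levels of the 10 enzymes in each liver, in FPKM on a log axis, ordered from left to right by their mean in control livers. Grey symbols are the 3 control livers, orange symbols the 3 lipophagy livers, and short horizontal lines the group means. The group means run from 1406 FPKM for Bhmt in control livers and 1822 FPKM for Gnmt in lipophagy livers to 23.1 and 23.6 FPKM for Mat2a.

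The levels spanned a wide range. In control livers Bhmt was the most abundant (1406 ± 251 FPKM, mean ± SD, n = 3) and Mat2a the least (23.1 ± 2.11 FPKM). The control order was Bhmt, Gnmt, Mat1a, Ahcy, Cbs, Sardh, Dmgdh, Bhmt2, Chdh and Mat2a. The livers of neighbouring genes in this order were separate except for Bhmt and Gnmt and for Chdh and Mat2a, whose values overlapped. In lipophagy livers Gnmt (1822 ± 481 FPKM) came before Bhmt (1620.4 ± 255 FPKM), with overlapping values, and the rest of the order was that of the control livers. Mat1a with Ahcy and Cbs with Sardh also overlapped there, as did Chdh with Mat2a. By mean level Bhmt ranked 54th and Gnmt 58th of all tested genes, and Mat2a ranked 2457th.

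S-adenosylmethionine is made by methionine adenosyltransferases, of which Mat1a encodes the form of adult liver and Mat2a the form of most other tissues, which is also raised in dividing hepatocytes. Mat1a (GRCm38 chr14:41105035-41124412, + strand) was at 566, 357 and 429.9 FPKM in control livers 1, 2 and 3. In lipophagy livers 1, 2 and 3 it was at 579, 427 and 608 FPKM. The groups overlapped, and the difference in log2(FPKM + 1) was 0.26 (SE 0.19, adjusted p = 0.462 in limma). This value moved with single livers, being 0.44 without control liver 1, 0.42 without lipophagy liver 2, 0.17 without lipophagy liver 3 and 0.11 without control liver 2, and it was 0.08 with each liver rescaled to the same total. Mat2a (chr6:72432799-72439558, - strand) was at 20.9, 25.1 and 23.4 FPKM in control livers and at 20.1, 23.4 and 27.4 FPKM in lipophagy livers. Its groups overlapped almost wholly, with a difference of 0.02 (95% interval -0.26 to 0.30, adjusted p = 0.938), which became -0.16 when each liver was rescaled to the same total and ranged from -0.09, with lipophagy liver 3 left out, to 0.13, with lipophagy liver 1 left out. The liver form thus exceeded the other by 4.20 ± 0.46 on the log2 scale in control livers and by 4.45 ± 0.32 in lipophagy livers. This ratio did not separate the groups (difference 0.24, two-sided exact permutation test p = 0.5, adjusted p = 0.9 over 3 ratios), in a design whose smallest p is 0.1. The difference was 0.03 without control liver 2, 0.07 without lipophagy liver 1, 0.40 without lipophagy liver 2 and 0.49 without control liver 1. Of the 100-base windows in Mat2a transcripts, 8.31% also occur in other transcripts, chiefly Particl, which lies across the Mat2a start on the opposite strand (mean 1.20 FPKM in control livers and 1.01 in lipophagy livers).

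Gnmt encodes glycine N-methyltransferase, which passes the methyl group of S-adenosylmethionine to glycine and so disposes of a methyl surplus as sarcosine. Gnmt (chr17:46725664-46729168, - strand, 6 exons) was at 1332, 974 and 1127 FPKM in control livers. In lipophagy livers it was at 2370.1, 1468 and 1629 FPKM. Every lipophagy liver lay above every control liver, and lipophagy liver 1 was far above the other two. The difference was 0.65 (SE 0.19, 95% interval 0.21 to 1.09), with an unadjusted p of 0.00961 and an adjusted p of 0.165 in limma. On the deposited scale it was larger than that of 99.2% of tested genes. Without lipophagy liver 1 the difference was 0.45 (adjusted p = 0.322), and the groups remained separate. It was 0.47 with each liver rescaled to the same total and 0.42 under quantile normalization, and in both the groups overlapped.

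Ahcy encodes adenosylhomocysteinase, which splits S-adenosylhomocysteine, the product that inhibits methyltransferases, into homocysteine and adenosine. Ahcy (chr2:155059310-155074497, - strand, 10 exons) was at 283, 261 and 295 FPKM in control livers and at 389, 382 and 429 FPKM in lipophagy livers. It had the clearest separation of the set, since the gap between the groups was wider than the range within either. The difference was 0.52 (SE 0.090, 95% interval 0.31 to 0.72), with the smallest p of the 10 (unadjusted p = 0.000431, adjusted p = 0.103 in limma). Over the 17 alternative settings it lay between 0.32 and 0.55, the groups did not overlap in any of the 17, and the adjusted p ranged from 0.0564 to 0.336. Ahcy has an intronless copy, Gm4737 on chromosome 16, and 63.6% of the 100-base windows of Ahcy transcripts also occur in other transcripts, chiefly this copy, so the share of fragments given to each is uncertain. Gm4737 was at 2.64, 1.80 and 2.22 FPKM in control livers and at 3.79, 4.42 and 3.73 FPKM in lipophagy livers. Its difference was 0.63 (SE 0.11, adjusted p = 0.111), and Ahcy exceeded it by 86.3 to 145 times in every liver.

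**Figure D2:**
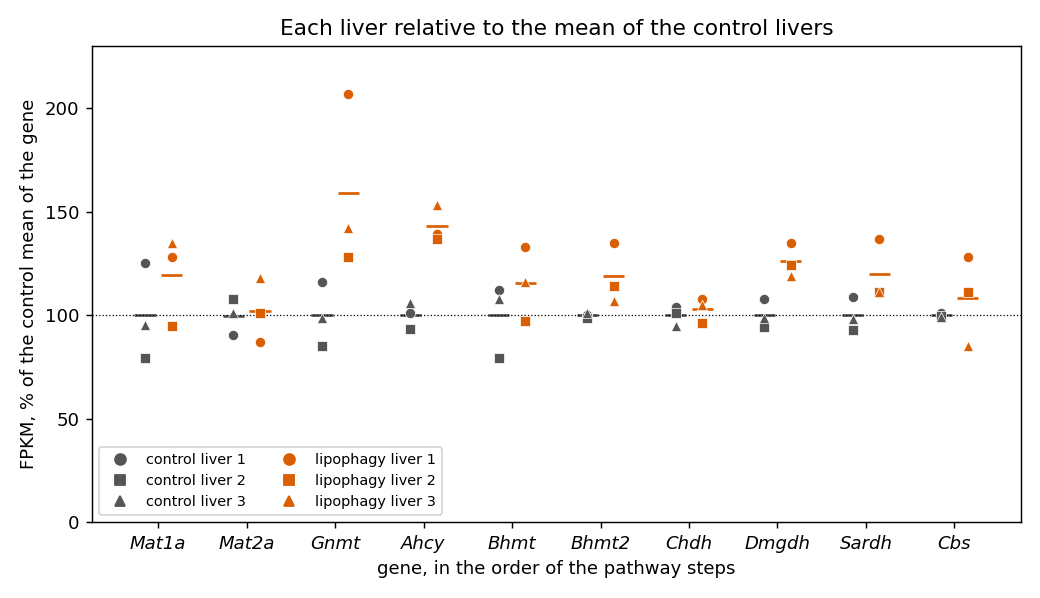
FPKM of each enzyme in each liver as a percentage of the mean of the 3 control livers (dotted line at 100%), in the order of the pathway. Grey symbols are control livers, orange symbols lipophagy livers, and short lines group means. On this deposited scale lipophagy livers lie above all control livers for Gnmt, Ahcy, Bhmt2, Dmgdh and Sardh, reaching 207% for Gnmt in lipophagy liver 1, while the groups overlap for Mat1a, Mat2a, Bhmt, Chdh and Cbs.

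The promoters of the genes that differed most and least on the deposited scale are shown because they differ in their letters. Each sequence is the 100 bases before the transcription start in the RefSeq annotation of GRCm38.p6, read along the gene's strand. Capitals mark TATAA (TATA box), CCAAT and GGGCGG (GC box) on either strand, so that CCAAT also appears as ATTGG and GGGCGG as CCGCCC. These motifs were chosen with the sequences in view.
Gnmt, chr17:46729166-46729265, - strand: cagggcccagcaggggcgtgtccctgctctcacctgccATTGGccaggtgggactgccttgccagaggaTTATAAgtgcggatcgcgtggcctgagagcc
Ahcy, chr2:155074498-155074597, - strand: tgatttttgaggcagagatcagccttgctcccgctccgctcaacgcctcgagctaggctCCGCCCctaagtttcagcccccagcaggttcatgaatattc
Mat2a, chr6:72439557-72439656, - strand: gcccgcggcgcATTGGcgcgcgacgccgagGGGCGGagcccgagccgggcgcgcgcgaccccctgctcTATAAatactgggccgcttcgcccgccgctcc
Chdh, chr14:30008900-30008999, + strand: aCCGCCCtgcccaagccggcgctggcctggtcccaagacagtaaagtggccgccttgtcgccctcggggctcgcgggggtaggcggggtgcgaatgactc
Gnmt held a TATAA, which overlaps its own reverse match in the run TTATAA, and a CCAAT. Ahcy held a GC box and no TATAA within these 100 bases, and Chdh likewise. Mat2a held all of them. Over the 250 bases before each start in 32851 promoters, TATAA was found in 22.8%, CCAAT in 33.8% and the GC box in 32.7%. Ahcy also held a CCAAT within its 250 bases. Within that longer window Mat2a held 29 CG pairs, Chdh 20 at the outermost of its 3 starts, Ahcy 9 and Gnmt 6, beside a median of 6 over all promoters. Chdh held 2 at each of its other starts. Of the other enzymes Cbs held 21, Bhmt2 20, Dmgdh 16, Bhmt 5 and Sardh 3, so these counts did not follow the size of the differences. The letters of Bhmt included AAAGGTCA, an extended recognition site of nuclear receptors, found in 1.34% of promoters, and those of Cbs the E box CACGTG, found in 6.02%. A match is a description of the letters.

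Bhmt methylates homocysteine back to methionine in liver with the methyl group of betaine, and its close relative Bhmt2 uses S-methylmethionine. Bhmt (chr13:93616675-93637961, - strand) was at 1580.3, 1118 and 1519 FPKM in control livers. In lipophagy livers it was at 1873, 1363 and 1624 FPKM. Control liver 2 and lipophagy liver 2 were the lowest of their groups, and the groups overlapped (difference 0.21, SE 0.17, adjusted p = 0.501 in limma). The difference was 0.05 without control liver 2, 0.10 without lipophagy liver 1, 0.33 without lipophagy liver 2 and 0.03 with each liver rescaled to the same total. Bhmt2 (chr13:93655720-93674302, - strand) was at 76.1, 75.0 and 76.9 FPKM in control livers and at 103, 86.9 and 81.0 FPKM in lipophagy livers. All lipophagy livers were above the narrow control range, and the spread in them was wider, with an SD of 11.2 against 0.991 FPKM. The difference was 0.24 (SE 0.099, unadjusted p = 0.0433, adjusted p = 0.247), and leaving out any liver but lipophagy liver 3 took the unadjusted p above 0.05. It was 0.14 without lipophagy liver 1 and 0.06 with the same total, where the groups overlapped. The log2 ratio of Bhmt to Bhmt2 was 4.18 ± 0.26 in control and 4.15 ± 0.18 in lipophagy livers (difference -0.03, two-sided exact permutation test p = 0.9, adjusted p = 0.9). This difference was -0.17 without control liver 2, 0.06 without control liver 1 and 0.07 without lipophagy liver 2. No 100-base window was shared by transcripts of Bhmt and Bhmt2, and 17.4% of those of Bhmt occur in other transcripts.

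Cbs encodes cystathionine β-synthase, which commits homocysteine to transsulfuration. Cbs (chr17:31608894-31637238, - strand) was at 189.9 FPKM in control liver 1, 188 in control liver 2 and 187 in control liver 3. In lipophagy livers it was at 241, 208 and 160 FPKM. The control livers were nearly identical (coefficient of variation 0.856%), and the lipophagy livers lay on both sides of them (19.9%). The difference was 0.09 (SE 0.14, adjusted p = 0.742 in limma), and it was -0.04 without lipophagy liver 1, 0.25 without lipophagy liver 3 (unadjusted p = 0.0361) and -0.09 with each liver rescaled to the same total. The log2 ratio of Bhmt to Cbs, the enzymes at the branch between remethylation and transsulfuration, was 2.88 ± 0.27 in control livers and 2.998 ± 0.32 in lipophagy livers (difference 0.12, two-sided exact permutation test p = 0.7, adjusted p = 0.9).

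Choline enters the pathway through Chdh, the mitochondrial choline dehydrogenase that makes betaine aldehyde. Chdh (chr14:30009023-30040527, + strand) was at 26.0, 25.1 and 23.6 FPKM in control livers and at 26.8, 23.9 and 26.1 FPKM in lipophagy livers. The groups overlapped, and the difference was 0.04 (SE 0.080, 95% interval -0.15 to 0.22, adjusted p = 0.822 in limma), turning to -0.14 with each liver rescaled to the same total and lying between 0.0006 and 0.08 with a liver left out. Chdh starts 126 bases from Il17rb, which is read in the opposite direction and was at a mean of 5.57 FPKM in control livers and 4.60 in lipophagy livers (difference -0.23, SE 0.082, adjusted p = 0.206).

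Dmgdh and Sardh encode the mitochondrial flavoenzymes that take the methyl groups from dimethylglycine and from sarcosine and hand their electrons to the electron transfer flavoprotein. Dmgdh (chr13:93674433-93752833, + strand, 16 exons) was at 114, 99.9 and 104 FPKM in control livers and at 143, 131 and 127 FPKM in lipophagy livers. Both groups were tight and did not overlap, with a difference of 0.33 (SE 0.088, 95% interval 0.13 to 0.53, unadjusted p = 0.00544, adjusted p = 0.148 in limma). Rescaled to the same total it was 0.15 (unadjusted p = 0.12), and the groups overlapped. Sardh (chr2:27188393-27248337, - strand, 21 exons) was at 165, 141 and 149 FPKM in control livers and at 209, 168 and 168 FPKM in lipophagy livers. The groups met almost end to end, since control liver 1 was just below lipophagy livers 2 and 3. Its difference was 0.25 (SE 0.11, unadjusted p = 0.0526, adjusted p = 0.261), against 0.15 without lipophagy liver 1 and 0.07 with the same total, where the groups overlapped.

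Bhmt, Bhmt2 and Dmgdh lie beside each other on chromosome 13, so that the gene that yields dimethylglycine is close to the gene that uses it. Bhmt2 and Dmgdh are read away from each other from starts only 130 bases apart, an arrangement within 1000 bases found for 1475 of 21924 protein-coding genes (6.73%). The 133 bases between their RefSeq starts are shown because they lie before both genes, with the GC box in capitals.
Bhmt2-Dmgdh, chr13:93674303-93674435, + strand: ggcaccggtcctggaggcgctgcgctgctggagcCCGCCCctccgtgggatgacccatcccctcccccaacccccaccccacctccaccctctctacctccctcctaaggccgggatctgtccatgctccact
This interval held a GC box on the strand opposite to Dmgdh and neither TATAA nor CCAAT. On the deposited scale both genes were higher at an unadjusted p below 0.05, by 0.24 and 0.33, as were 28.1% of abundant genes, and with the same total neither was (0.06 and 0.15), their groups overlapping. The genes on either side of the cluster were far lower in liver. Jmy had a mean of 1.50 FPKM in control livers and 1.71 in lipophagy livers (difference 0.11, adjusted p = 0.519), and Arsb, beyond Dmgdh, 8.38 and 8.42 FPKM (difference 0.0048, SE 0.075). They were named for their place and not for their values.

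**Figure D3:**
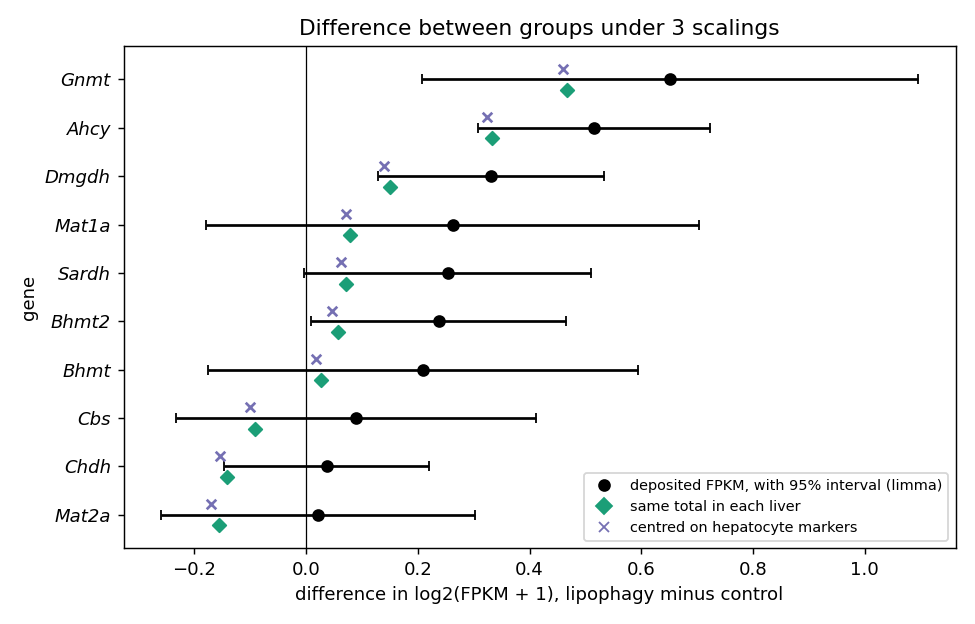
Difference in log2(FPKM + 1) between groups, lipophagy minus control, for the 10 enzymes. Black points are the deposited FPKM with the 95% interval from limma, green diamonds the values after each liver was rescaled to the same total, and crosses those after each was centred on hepatocyte markers. Gnmt and Ahcy are at 0.65 and 0.52 on the deposited scale and stay above 0 under the other scalings, whereas Cbs, Chdh and Mat2a pass below 0.

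The size of these differences depended on the scale. With every liver rescaled to the same total, the median difference of all tested genes moved from 0.02 to -0.13 and that of the 10 enzymes from 0.25 to 0.06, which left the enzymes 0.19 above the median of all genes instead of 0.23. Only Ahcy (0.33, unadjusted p = 0.00666) and Gnmt (0.47, unadjusted p = 0.0269) then had an unadjusted p below 0.05, and of the 10 only Ahcy kept its groups apart. Over all tested genes this scaling gave 2.05% higher and 21.8% lower at an unadjusted p below 0.05, and 2.74% separated upwards. Centring each liver on hepatocyte markers moved the median of all genes to -0.17 and gave 0.32 for Ahcy and 0.46 for Gnmt, both with separate groups. Chdh was then separated downwards at -0.15. Over all tested genes 1.49% were then higher and 32.7% lower at an unadjusted p below 0.05, with 1.99% separated upwards and 37.2% downwards. Quantile normalization gave 0.32 for Ahcy and 0.42 for Gnmt, and the median of the 10 enzymes was then 0.05 above that of all genes, 6.48% of which were higher at an unadjusted p below 0.05. Under these 3 scalings 7 of 10 differences were above 0, and those of Mat2a, Chdh and Cbs were below 0. On the log2 scale Gnmt stayed between 0.42 and 0.79 over the 17 alternatives, and no enzyme reached an adjusted p below 0.05 in any of them.

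The livers also differed among themselves in a way that ran through several enzymes. Lipophagy liver 1 had the highest value of the 6 for 7 of the 10 enzymes, and control liver 2 the lowest for 7. Added together, the 10 enzymes reached 4354, 3264 and 3936 FPKM in control livers and 5953, 4282 and 4879.6 FPKM in lipophagy livers, so that lipophagy liver 2 fell below control liver 1. They took 0.699%, 0.497% and 0.578% of all FPKM in the control livers, and 0.761%, 0.583% and 0.687% in the lipophagy livers. After the mean of each group was taken off, Gnmt was most like Sardh among the other 9 (Pearson r = 0.982 over 6 livers). Dmgdh was also most like Sardh (r = 0.943), Bhmt2 most like Cbs (r = 0.917) and Bhmt most like Gnmt (r = 0.871). Mat1a was most like Bhmt (r = 0.848), Chdh and Ahcy most like Mat1a (r = 0.68 and 0.629), and Mat2a had no close counterpart (r = 0.286, with Ahcy). These values describe the same 6 libraries, and within a liver all enzymes share its depth and scaling.

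Genes of the neighbouring steps were read from lists, and no gene in any of them had an adjusted p below 0.05 in limma. For the counts that follow, on the deposited scale, 54.5% of all tested genes and 82.2% of the abundant ones had a higher mean, and 11.5% and 28.1% were higher at an unadjusted p below 0.05. The lists' medians moved with single livers: without lipophagy liver 1 the medians were 0.11 for transsulfuration, 0.07 for the folate cycle, 0.07 for choline supply and 0.12 for methyltransferases, without control liver 1 they were 0.09 for methyltransferases and 0.12 for the partners, which were at 0.04 without control liver 3. The remethylation list was at 0.07 without lipophagy liver 3 and at 0.09 without control liver 2 or 3. Of the 5 genes of homocysteine remethylation by folate and vitamin B12, 3 were higher and 2 lower in mean, with a median difference of 0.14 (0.03 with the same total, -0.05 centred on hepatocyte markers) and 0 at an unadjusted p below 0.05. Mtr, methionine synthase, was at 0.592 ± 0.212 FPKM in control livers and 0.456 ± 0.0544 in lipophagy livers (difference -0.12). At the RNA level it was thus a small part of Bhmt, and enzyme activity was not measured. Its reductase Mtrr differed by 0.14. Mmadhc, of cobalamin handling, had the largest positive difference of this list (0.23).

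Downstream of Cbs, 10 of 12 genes of transsulfuration and cysteine use had a higher mean and 2 a lower mean, with 2 of 12 higher at an unadjusted p below 0.05, beside 11.5% of all and 28.1% of abundant genes, and a median of 0.21 (0.03 with the same total, 0.02 centred on hepatocyte markers). Cth, the cystathionine γ-lyase that releases cysteine, was at 211, 203 and 200.3 FPKM in control livers and at 330, 207 and 248 FPKM in lipophagy livers (difference 0.33, SE 0.16, adjusted p = 0.291). Lipophagy liver 1 was far above the rest for Cth, while lipophagy liver 2 lay within the control range. Got1, an aspartate aminotransferase, had the largest positive difference (0.34, SE 0.37) and Gclc, which begins glutathione synthesis, the largest negative one (-0.23, SE 0.13).

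In the folate cycle, 17 of 20 listed genes were tested, of which 13 were higher and 4 lower, with 3 of 17 higher at an unadjusted p below 0.05, beside 11.5% and 28.1%, and a median of 0.14 (-0.04 with the same total). Slc25a32, the mitochondrial folate carrier, had the largest positive difference (0.46, SE 0.12, adjusted p = 0.151), and Mthfd1l the largest negative one (-0.15, SE 0.12). In the list of choline and betaine supply and of electron transfer from Dmgdh and Sardh, 15 of 16 genes were tested, of which 11 were higher and 4 lower, with 5 of 15 higher at an unadjusted p below 0.05, beside the same 11.5% and 28.1%, and a median of 0.14 (-0.03 with the same total, -0.05 centred on hepatocyte markers). Aldh7a1, one of the dehydrogenases that complete betaine synthesis, was at a mean of 195 FPKM in control livers and 214 in lipophagy livers (difference 0.13, SE 0.087). Etfdh, which passes the electrons of Dmgdh and Sardh to ubiquinone, was at 84.9 ± 6.14 and 99.5 ± 4.17 FPKM, with separate groups (difference 0.23, SE 0.084, adjusted p = 0.212). Pipox, a peroxisomal sarcosine oxidase, had the largest positive difference (0.35, SE 0.094, adjusted p = 0.151). Chka, a choline kinase that commits choline to phosphatidylcholine instead of betaine, had the largest negative one (-0.30, SE 0.18).

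Of 15 methyltransferases that use S-adenosylmethionine, 14 had a higher mean, beside 54.5% of all and 82.2% of abundant genes, and 1 a lower mean, with 3 of 15 higher at an unadjusted p below 0.05, beside 11.5% and 28.1%, and a median of 0.18 (0.01 with the same total, -0.01 centred on hepatocyte markers). Pemt, which makes phosphatidylcholine from phosphatidylethanolamine, was at 301, 311 and 292 FPKM in control livers and at 427, 332 and 301 FPKM in lipophagy livers (difference 0.21, SE 0.13, adjusted p = 0.384). Nnmt, nicotinamide N-methyltransferase, differed by 0.27 (SE 0.15). Inmt, indolethylamine N-methyltransferase, had the largest positive difference (0.74, SE 0.22, adjusted p = 0.171), with 622, 390.2 and 414 FPKM in control livers and 1019.8, 614 and 752 FPKM in lipophagy livers. Control liver 1 was above lipophagy liver 2 for Inmt. As3mt had the largest negative difference (-0.15).

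Of the 12 partners of the cycle and enzymes of polyamine synthesis, 8 were higher and 4 lower, with 3 of 12 higher at an unadjusted p below 0.05, beside 11.5% and 28.1%, and a median of 0.07 (-0.09 with the same total, -0.12 centred on hepatocyte markers). Srm, spermidine synthase, was at 15.9, 18.2 and 16.6 FPKM in control livers and at 26.9, 21.7 and 29.7 FPKM in lipophagy livers. The groups were separate, with the largest positive difference of this list (0.59, SE 0.12, adjusted p = 0.124). Adk, which clears the adenosine released by Ahcy, was at 343 ± 8.04 and 409 ± 22.5 FPKM, also separate (difference 0.25, SE 0.082, adjusted p = 0.186). Mat2b, the regulatory partner of Mat2a, was at 16.9 ± 0.792 and 16.1 ± 0.484 FPKM (difference -0.06). Amd1, an S-adenosylmethionine decarboxylase, had the largest negative difference (-0.85, SE 0.60), which came from control liver 2 alone, at 4.93 FPKM, while the other 5 livers were listed at 0.0148 to 0.0209 FPKM. In the glycine and serine list 11 of 12 genes were tested, of which 10 were higher and 1 lower, with 5 of 11 higher at an unadjusted p below 0.05, beside 11.5% and 28.1%, and a median of 0.17 (-0.01 with the same total). Sds, a periportal serine dehydratase, was at 109.96, 69.8 and 80.0 FPKM in control livers and at 167, 84.7 and 224 FPKM in lipophagy livers (difference 0.78, SE 0.33, adjusted p = 0.248), with overlap. Psat1, of serine synthesis, was lowest of this list at -0.13.

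**Figure D4:**
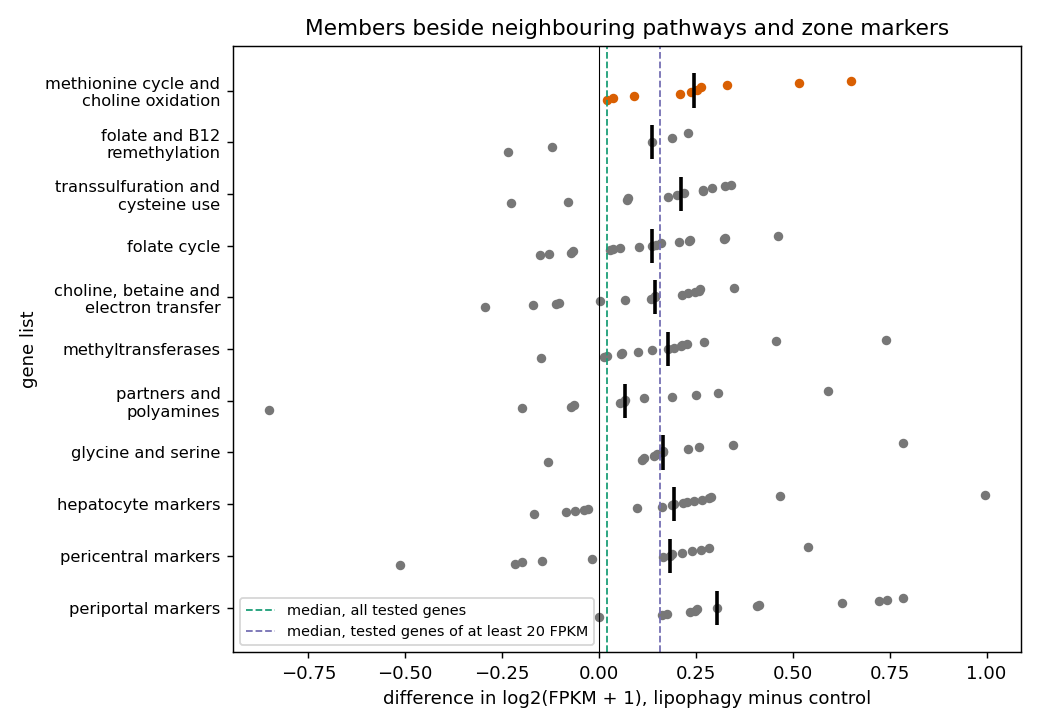
Difference in log2(FPKM + 1), lipophagy minus control, on the deposited scale for each tested gene of the 10 enzymes (orange) and of neighbouring pathway and liver zone lists (grey), with a black bar at each list's median. Dashed lines are the medians of all tested genes (0.02) and of tested genes averaging 20 FPKM or more (0.16); height within a list only spreads the points. The medians of the pathway lists lie between 0.07 and 0.21, the enzymes' at 0.25 and the periportal markers' at 0.30, and those of the folate, choline, partner and glycine lists fall below 0 when each liver is rescaled to the same total.

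Marker genes of liver cells were read in the same libraries, since the enzymes described are mostly made by hepatocytes. Of 17 tested hepatocyte markers 12 had a higher mean, beside 54.5% of all tested and 82.2% of abundant genes. Their median difference was 0.19 (0.01 with the same total). Their summed level was 80219 to 90204 FPKM in control livers and 95073 to 119322 FPKM in lipophagy livers, with lipophagy liver 1 the highest. No hepatocyte marker was at 0. Markers of periportal hepatocytes had a median of 0.30 (12 higher, 1 lower, 0.12 with the same total, 0.19 when lipophagy liver 1 was left out and 0.51 when lipophagy liver 2 was) and summed to 3412 to 3594 FPKM in control and 3786 to 5369 FPKM in lipophagy livers. Markers of pericentral hepatocytes had a median of 0.18 (8 higher, 5 lower, 0.0013 with the same total, 0.08 without lipophagy liver 2) and summed to 4924 to 5880 FPKM and to 5949 to 6745 FPKM. In the other direction, 7 of 7 bile duct markers had a lower mean (median -0.46, 1 lower at an unadjusted p below 0.05). So had 7 of 10 stellate cell markers (median -0.21, 5 lower at this p). The same held for 7 of 11 macrophage markers (median -0.15, 2 lower and 1 higher at this p) and 3 of 3 neutrophil markers (median -0.37, 2 lower). Beside these, 5234 of the 11493 tested genes had a lower mean and 7.97% were lower at this p. Bile duct markers summed to 139 to 250.4 FPKM in control livers and to 93.5 to 199 FPKM in lipophagy livers, stellate cell markers to 114 to 119 and 94.3 to 115 FPKM. Endothelial markers had a median of 0.10 (-0.04 with the same total) and lymphocyte markers of -0.06 (0.03 under quantile normalization). Blood markers had a median of 1.12 (0.29 without lipophagy liver 2) and summed to 483 FPKM in lipophagy liver 2 against 109 to 169 FPKM in the other 5, and exocrine pancreas markers, with 2 tested, had a median of 0.14 (-0.05 centred on hepatocyte markers). With a liver left out, the median of macrophage markers ranged from -0.30 to -0.07, of neutrophil markers from -0.63 to -0.24, of bile duct markers from -0.70 to -0.32, of endothelial markers from 0.01 to 0.22, of exocrine pancreas markers from 0.07 to 0.22 and of lymphocyte markers from -0.14 to 0.05. The part of these shifts in the values of the enzymes was not tested. In whole liver, fewer cells of a type and less RNA per cell cannot be told apart.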

How the data were processed

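Poly(A) RNA libraries of 6 mouse livers, 3 control and 3 lipophagy, were prepared with a stranded kit and sequenced in paired-end mode, on a HiSeq instrument per the labels and on a NovaSeq instrument per the study's methods. The authors deposited values per gene symbol as FPKM, a unit scaled to transcript length and to mapped fragments. The submitters' processing notes name TopHat2 2.0.13, Bowtie2 2.2.3, SAMtools 0.1.19, Cufflinks 2.2.1 and the build mm10, and the gene annotation is not given in the sources used here. Groups and replicate numbers came from the sample titles.

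Values entered the analysis as log2(FPKM + 1), on which the change of a low gene is understated. Genes averaging 0.5 FPKM or more over the livers (11493) went into limma 3.58.1, run under R 4.3.3 (intensity trend, no covariate, two-sided, Benjamini-Hochberg adjustment over all tested genes, threshold 0.05), an unpaired two-sided comparison of 2 groups as in the study's statistics, which name no method across all genes. Ratios were compared with an exact permutation test. Other pseudocounts, filters, scalings and weights, no trend, the replicate number as a block and each liver left out were tried as alternatives. Whether the mice of a group came from separate litters or cages is not stated, so p-values measure the spread between these samples. The code was tested on simulated data. Positions came from GENCODE for GRCm38, which is the sequence of mm10. Of the 10 genes 9 had a RefSeq promoter (GRCm38.p6), and shared 100-base windows between transcripts stood in for fragments that cannot be assigned to 1 gene. Annotation and plots used matplotlib 3.10.9, numpy 2.4.6 and pandas 2.3.3 under Python 3.11.15.

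The 10 genes and the lists of neighbouring pathways and markers were chosen with earlier results of these data known. In the neighbouring lists some genes were named by choice (Mtr, Mtrr, Cth, Mat2b, Adk, Pemt, Aldh7a1, Etfdh, Nnmt), the others for the largest positive or negative difference, and Gm4737, Particl, Il17rb, Jmy and Arsb for their sequence or place. The values of 1 further gene that was to be named are not reported here. Of the list symbols 5 were not found in the table and were not used.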

Additional observations from a re-analysis of the deposited data

How the results depend on the processing

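The differences of Gnmt, Ahcy, Dmgdh, Sardh, Bhmt, Bhmt2 and Mat1a stayed above 0 under all 17 alternatives, none of which gave an adjusted p below 0.05 to any of the 10 enzymes. The unadjusted p was below 0.05 in 17 of 17 for Gnmt and Ahcy, 14 for Dmgdh, 8 for Bhmt2 and 5 for Sardh, and the groups were separate in 17 for Ahcy, 15 for Gnmt and 14 for Dmgdh, Bhmt2 and Sardh. The differences of Mat2a, Chdh and Cbs were negative when each liver was rescaled to the same total (-0.156, -0.141 and -0.0923), under quantile normalization (-0.0831, -0.0821 and -0.0776) and when centred on hepatocyte markers (-0.170, -0.155 and -0.101), and that of Mat2a was -0.0315 with liver quality weights. With each liver left out in turn, Mat2a ranged from -0.0865 to 0.128 and Cbs from -0.0421 to 0.250. The ratio of Mat1a to Mat2a then ranged from 0.0281 to 0.485, that of Bhmt to Bhmt2 from -0.175 to 0.0677 and that of Bhmt to Cbs from -0.0481 to 0.265, with no call. The number of enzymes with an unadjusted p below 0.05 was 2 instead of 4 under each of those 3 scalings, which moved the share of all tested genes that were higher at this p from 11.5% to 2.05%, 6.48% and 1.49%. Of genes that averaged 20 FPKM or more, the share moved from 28.1% to 5.19%, 7.64% and 3.66%. The number of enzymes was 3 to 6 with a liver left out, beside 6.96% to 14.0% of all genes and 16% to 34.7% of those averaging 20 FPKM or more. The number with separate groups was 1 with the same total (beside 2.74% of all tested genes separated upwards), 1 under quantile normalization (10.2%), 3 when centred (2 upwards, beside 1.99%, and Chdh downwards, beside 37.2%) and 5 to 8 with a liver left out (18.4% to 25.9%), 8 being without lipophagy liver 2 (20.8%, and 41.7% of genes that averaged 20 FPKM or more), where only 2 lipophagy livers are compared. Of genes that averaged 20 FPKM or more, 7.06% were separated upwards with the same total, 10.9% under quantile normalization and 5.45% when centred. With a liver left out 37.6% to 56.2% of them were. Over all tested genes 104 were called with the same total, 713 when centred, 39 with quality weights, 1 with no filter, 43 with the replicate number as a block and 1 to 11 with a liver left out, against 3. The cause of these shifts was not tested. Replicate numbers were not taken as pairs, since the correlations of same-numbered deviations were 0.25, 0.234 and -0.0565 (3 of 6 livers correlated best with their own number). The block left the count of enzymes with an unadjusted p below 0.05 at 4, with Sardh in place of Bhmt2, and every adjusted p above 0.05. The 95% intervals of Mat2a (-0.26 to 0.30) and Chdh (-0.15 to 0.22) hold differences in both directions.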
